A study of Mus musculus with 59 samples.

Results

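The SLC25 family of mitochondrial carriers, taken without the citrate carrier Slc25a1, was followed in mouse cortex and hippocampus. Its members were the rows of the raw count table whose symbol is Slc25a followed by a number, together with Ucp2, Mtch1 and Mtch2. This gave 49 genes of 57180 gene rows. The study sequenced poly(A) RNA of male mice to ask how Slc25a1 and Mrpl40, a gene of the mitochondrial ribosome, act alone and together when each is heterozygous; both lie in the mouse region that matches human 22q11.2. The 4 labelled genotypes were wild type (Mrpl40 +/+, Slc25a1 +/+), Slc25a1 het (Slc25a1 +/-), Mrpl40 het (Mrpl40 +/-) and double het (+/- for both). In that order, cortex had 9, 7, 7 and 7 libraries and hippocampus 8, 7, 7 and 7. Both tissues were sequenced for 29 of the 30 animals, which makes 59 libraries. The labels and protocols give neither the kind of allele nor the strain or age of the mice.

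Carriers of this family sit mostly in the inner mitochondrial membrane and exchange metabolites, nucleotides, phosphate, cofactors and ions between the cytosol and the matrix. They are encoded in the nucleus, made in the cytosol and inserted by the TIM22 complex. A few members have moved to other membranes, such as Mtch1, Mtch2 and Slc25a46 in the outer mitochondrial membrane and Slc25a17 in peroxisomes. In brain the carriers link ATP export, the malate-aspartate shuttle and the handling of glutamate to neurons and glia.

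Total counts per library ranged from 21443017 to 32120906. The labelled genotype was checked on the targeted genes. Slc25a1 was at 10.8 to 13.1 CPM (read counts scaled to library size) in the cortex of 10 animals with a heterozygous Slc25a1 label and at 21.8 to 26.3 CPM in 14 animals without one. In the other 6 animals, 2 labelled wild type, 2 Slc25a1 het and 2 double het, the level went against the label in both tissues. Mrpl40 did not separate by its label. Its cortex median was 17.1 CPM in wild type (range 16.0 to 20.7), 17.5 in Mrpl40 het (15.4 to 19.3) and 17.6 in double het (15.2 to 19.6). In hippocampus the medians were 15.9, 15.4 and 16.2 CPM in the same order, and all these ranges overlap. Genotypes are therefore given as labelled, and directions drawn from them rest on those labels. The tissue labels matched their markers, since the 9 hippocampus markers had a mean log2 CPM of 5.25 to 6.27 in hippocampus and 1.16 to 2.12 in cortex. Among hippocampus libraries, that of animal 12 was high in cerebellum markers (5.19, next highest 1.12), those of animals 22 and 30 were highest in choroid plexus markers, and that of animal 8 was lowest in hippocampus markers.

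Several members are close relatives, and 2 pairs that diverged between the tissues are shown so that their likeness can be seen. Slc25a4 and Slc25a5, the ADP/ATP carriers Ant1 and Ant2, share 77.4% of 894 aligned coding bases. Their longest identical run is 20 bases. Over coding bases 28 to 147, counted from the start codon, 102 bases are identical and 18 differ. The 18 differing bases are in capitals.
Slc25a4: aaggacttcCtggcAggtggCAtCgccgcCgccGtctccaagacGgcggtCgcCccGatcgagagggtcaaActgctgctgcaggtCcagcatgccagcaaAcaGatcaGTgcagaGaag
Slc25a5: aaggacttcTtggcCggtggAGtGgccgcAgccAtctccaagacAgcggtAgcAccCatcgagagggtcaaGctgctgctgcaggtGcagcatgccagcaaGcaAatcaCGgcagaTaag
The mitoferrins Slc25a37 and Slc25a28, which import iron, share 69.1% of 1011 aligned coding bases. In the stretch below, from coding base 554 of Slc25a37 and 635 of Slc25a28, 97 of the bases are identical and the 23 in capitals differ.
Slc25a37: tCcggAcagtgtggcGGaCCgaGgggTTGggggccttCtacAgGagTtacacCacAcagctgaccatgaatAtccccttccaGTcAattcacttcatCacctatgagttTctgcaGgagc
Slc25a28: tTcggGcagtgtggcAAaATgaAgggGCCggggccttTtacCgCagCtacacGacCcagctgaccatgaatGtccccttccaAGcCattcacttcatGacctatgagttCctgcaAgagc
These sequences are from GENCODE vM21 (GRCm38). There was no stretch of 100 bases shared between the transcripts of any 2 members. Stretches shared with other genes made up 18.97% of the 100-base windows of Slc25a35, 10.18% of Slc25a33, 8.33% of Slc25a5 and 6.11% of Slc25a37, so that reads there may be split or lost.

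The highest levels were those of certain ADP/ATP and phosphate carriers and of Mtch1. Levels between genes are compared as CPM per kilobase of exon, with exon lengths from vM21. The highest was Slc25a4, at a median of 234 in cortex and 218 in hippocampus. In cortex it was followed by the calcium-regulated ATP-Mg/phosphate carrier Slc25a23 (99.0 and 110), Slc25a5 (91.6 and 95.6), the phosphate carrier Slc25a3 (58.8 and 50.5) and Mtch1 (54.9 and 61.1). In hippocampus, where the second value of each pair was measured, Mtch1 lay above Slc25a3. In cortex, Slc25a4 lay above Slc25a23, and Slc25a5 above Slc25a3, in every library range, while Slc25a23 and Slc25a5 overlapped. Of 48 neighbouring pairs in the order of levels, 41 had overlapping library ranges in cortex and 42 in hippocampus. Differences between neighbours within the same library were not tested. The levels of all members summed to 3352 to 3619 CPM in cortex and 3274 to 3775 CPM in hippocampus, ranges that overlap.

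**Figure D1:**
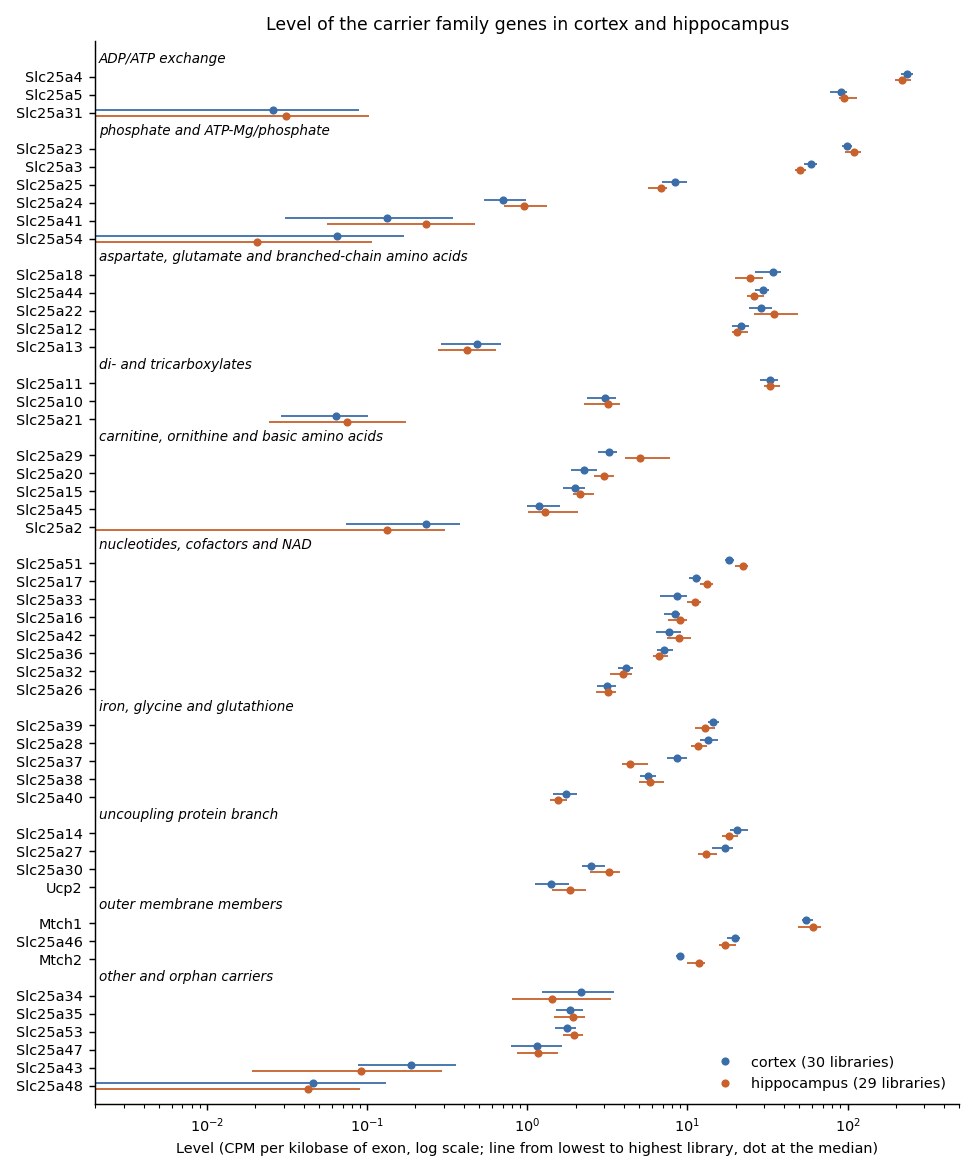
Level of the genes as CPM per kilobase of exon on a log axis, grouped by role, with cortex in blue and hippocampus in orange. The dot is the median over libraries and the line runs from the lowest to the highest library (lines reaching the left edge go to 0); Slc25a4 has the highest median in both tissues, at 234 and 218.

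At the other end stood members known from other organs. Slc25a31, the testis ADP/ATP carrier, had 0 to 5 counts in any library. Slc25a48 had 0 to 13 and Slc25a54 0 to 8, and these 3 passed the filter on low counts in no fit. Slc25a41 (1 to 12 counts) fell below the filter in cortex. Slc25a2 (0 to 11 counts) and Slc25a43 (1 to 12 counts) fell below it in hippocampus. The filter left 45 members in cortex, 44 in hippocampus and 46 in the fit of both tissues. Over the 43 members measured in both tissues, the median SD of log2 CPM within a genotype was 0.094 in cortex and 0.0952 in hippocampus. It was 0.1434 and 0.1674 over the 19463 genes measured in both. These sets were not matched for level, and members with few counts spread more, such as Slc25a13 (0.31 in cortex) and Slc25a21 (0.41). The gap is therefore not given as a trait of the family.

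The clearest differences in the family were between the 2 tissues. In hippocampus against cortex, averaged over genotypes with the animal as a block, 38 of 46 members passed the edgeR quasi-likelihood test at a false discovery rate of 0.05. This share is close to the background, since 77.5% of the 21354 genes tested passed. Of the 38, 19 were higher in hippocampus (39.8% of all genes) and 19 lower (37.7%). The members' median absolute log2 difference was 0.20, against 0.26 over all genes. Slc25a2, Slc25a41 and Slc25a43 passed the filter on low counts only through the tissue in which they are higher, so their differences are given as values only. Of the 43 members past the filter in each tissue alone, 35 passed the test (77.6% of the 19463 such genes), 18 higher in hippocampus (40.2%) and 17 lower (37.4%). Cell type markers moved with tissue too. All 7 inhibitory neuron markers were lower in hippocampus (median log2 difference -0.86), while 9 of 12 microglia, 6 of 10 oligodendrocyte, 4 of 6 meninges and all 4 oligodendrocyte precursor markers were higher and none of these lists had a lower one. Of 11 astrocyte markers 6 were higher and 3 lower, and their mean log2 CPM ranged from 7.22 to 7.60 in cortex and from 7.59 to 8.11 in hippocampus. Of 6 excitatory neuron markers 3 were higher and 2 lower, with a mean of 8.49 to 8.77 in cortex and 8.08 to 8.73 in hippocampus. The meninges markers had a mean of 0.18 to 2.93 in cortex and 2.22 to 3.21 in hippocampus. The part of these markers in the members' differences was not tested. In tissue pieces, fewer cells of a type and less RNA per cell cannot be told apart.

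The counts by role that follow are small and stand beside the shares over all genes above, with no test between roles. Among the iron and glutathione carriers, 4 of 5 were lower in hippocampus and none was higher. Slc25a37, mitoferrin 1, ranged from 45.1 to 59.7 CPM in cortex (median 52.0) and from 23.4 to 34.4 CPM in hippocampus (median 26.4). The tissues did not overlap, and the level was lower in hippocampus in 29 of 29 animals. Its log2 fold change was -0.96 ± 0.022 (SE; edgeR adjusted p = 8.8e-29). Its relative Slc25a28, mitoferrin 2, fell less, by 0.21 on the log2 scale, from a median of 50.6 to 43.7 CPM. As a result the log2 ratio of Slc25a37 to Slc25a28 ranged from -0.23 to 0.23 in cortex and from -1.05 to -0.33 in hippocampus, lower in 29 of 29 animals. The glutathione carriers Slc25a39 and Slc25a40 fell by 0.16 and 0.19. Slc25a38, a glycine carrier of heme synthesis, did not pass (0.05 ± 0.026, SE; edgeR adjusted p = 0.067).

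**Figure D2:**
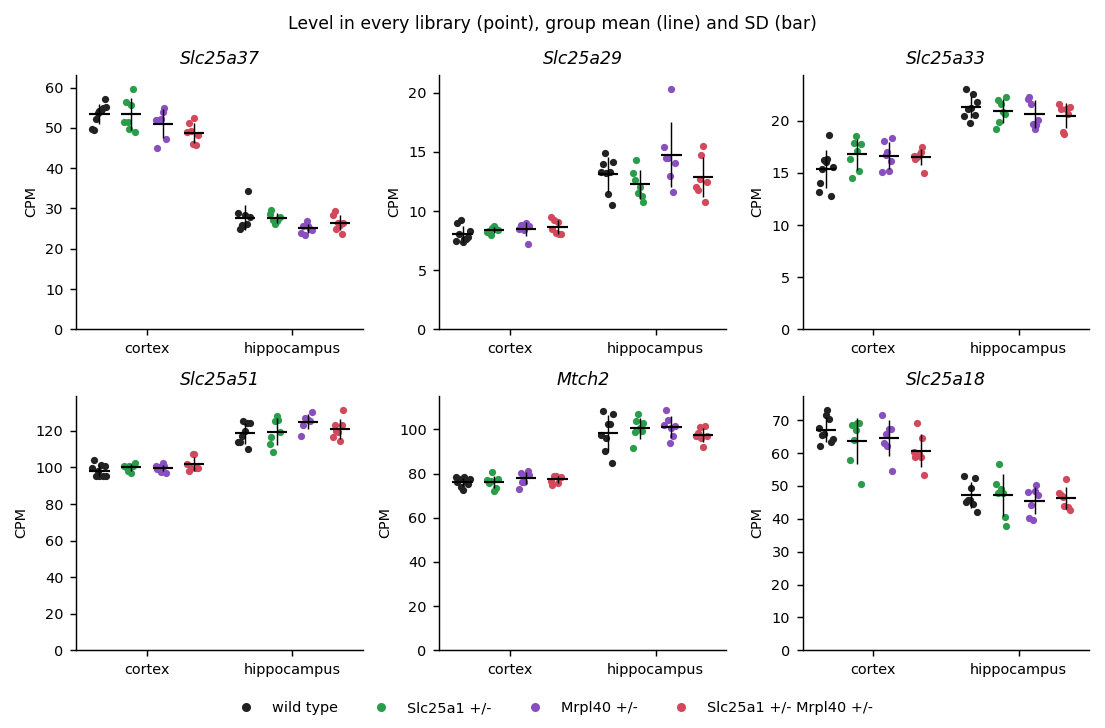
CPM of 6 members in every library (points, coloured by labelled genotype), with the group mean (horizontal line) and SD (vertical bar), for cortex on the left and hippocampus on the right of each panel. For Slc25a37, Slc25a29, Slc25a33, Slc25a51 and Mtch2 the tissues do not overlap, while for Slc25a18 they do.

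Of the 5 carriers of carnitine, ornithine and basic amino acids, Slc25a29, Slc25a20 and Slc25a15 were higher in hippocampus. Slc25a29, a carrier of basic amino acids, ranged from 7.23 to 9.50 CPM in cortex (median 8.40) and from 10.5 to 20.3 CPM in hippocampus (median 13.2). Its highest value was that of animal 22, whose hippocampus library was high in choroid plexus markers (0.81, mean log2 CPM). In animal 30, the highest in those markers (0.96), Slc25a29 was at 10.8 CPM in hippocampus. The part of those markers in its level was not tested. The tissues did not overlap, and the difference was 0.64 ± 0.033 (log2, SE; edgeR adjusted p = 8.0e-19). Slc25a29 lies on chromosome 12 at 108825873 to 108835883 (GRCm38, minus strand), 162 bases from the start of Slc25a47 on the plus strand. Slc25a47 had a log2 difference of -0.01 ± 0.057 (SE), so that the log2 ratio of the pair was higher in hippocampus in 28 of 29 animals. Slc25a20, the carnitine-acylcarnitine carrier that feeds fatty acid oxidation, rose by 0.41, in 29 of 29 animals. Slc25a15, the ornithine carrier of the urea cycle, rose by 0.14. Slc25a45 did not pass. Slc25a2, another ornithine carrier, had medians of 0.32 CPM in cortex and 0.18 in hippocampus (log2 difference -0.66) and was below the filter in hippocampus.

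Of the aspartate, glutamate and branched-chain amino acid carriers, 4 of 5 were lower in hippocampus and 1 was higher. Slc25a18, a glutamate carrier, ranged from 50.7 to 73.1 CPM in cortex (median 65.2) and from 37.9 to 56.8 CPM in hippocampus (median 47.2). The ranges overlap, yet all 29 animals were lower in hippocampus, with a log2 difference of -0.46 ± 0.030 (SE; edgeR adjusted p = 9.5e-16). The other glutamate carrier, Slc25a22, went from 146 to 201 CPM in cortex to 156 to 295 CPM in hippocampus. The highest value was that of animal 22, and the rise was 0.29 on the log2 scale. The log2 ratio of Slc25a22 to Slc25a18 was thus higher in hippocampus in 29 of 29 animals. The aspartate/glutamate carriers of the malate-aspartate shuttle, Slc25a12 and Slc25a13, fell by 0.05 and 0.23. With the 6 animals left out in which Slc25a1 and label disagree, Slc25a13 no longer passed (-0.15; edgeR adjusted p = 0.11). Slc25a44, which carries branched-chain amino acids, fell by 0.18.

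Slc25a18 is known as an astrocyte gene, and its level was set against 11 astrocyte markers over libraries, as 1 of 4 such relations with adjustment over the 4. In cortex Pearson's r was 0.59 (n = 30; permutation p = 0.0019, adjusted 0.0078) and Spearman's rho 0.59 (permutation p = 0.0019). Without the 2 libraries farthest from the median marker level, r was 0.53 (adjusted permutation p = 0.047). In hippocampus r was 0.16 (n = 29; adjusted permutation p = 0.50) and rho 0.21 (permutation p = 0.33), and r was 0.42 without the 2 farthest libraries (adjusted permutation p = 0.079). The marker mean itself was higher in hippocampus (median 7.80 against 7.37, log2 CPM) while Slc25a18 was lower. Single astrocyte markers went both ways between the tissues, as given above. The part of astrocyte content in the tissue difference of Slc25a18 was not tested. For Ucp2 against 12 microglia markers, r was 0.22 in cortex and 0.39 in hippocampus (adjusted permutation p = 0.36 and 0.18), with rho of 0.20 and 0.33 (permutation p = 0.32 and 0.12). Without the 2 farthest libraries these r were 0.18 and 0.20. The mean of each genotype was subtracted first, and values were permuted within genotypes.

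Among nucleotide and cofactor carriers 5 of 9 measured members were higher in hippocampus and 2 lower. The NAD carrier Slc25a51 ranged from 95.1 to 108 CPM in cortex (median 99.9) and from 109 to 131 CPM in hippocampus (median 123). The pyrimidine nucleotide carrier Slc25a33 ranged from 12.8 to 18.7 CPM in cortex (median 16.3) and from 18.8 to 23.1 CPM in hippocampus (median 21.1). Neither overlapped between the tissues, with rises of 0.28 ± 0.018 and 0.35 ± 0.026 (log2, SE). Slc25a36, which also carries pyrimidine nucleotides, fell by 0.11. Slc25a17, Slc25a42 (a coenzyme A carrier) and Slc25a16 rose by 0.22, 0.23 and 0.12. The folate carrier Slc25a32 fell by 0.07, and the S-adenosylmethionine carrier Slc25a26 did not pass.

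The outer membrane members also differed. Mtch2, an insertase for membrane proteins, ranged from 72.3 to 81.2 CPM in cortex (median 76.7) and from 84.6 to 109 CPM in hippocampus (median 100.4). The tissues did not overlap, and the rise was 0.37 ± 0.016 (log2, SE; edgeR adjusted p = 8.3e-21). Mtch1 rose by 0.14 and Slc25a46, which acts in mitochondrial dynamics, fell by 0.18.

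In the uncoupling protein branch, Ucp2 and Slc25a30 were higher in hippocampus and Slc25a27 and Slc25a14 lower. Ucp2 ranged from 7.80 to 12.6 CPM in cortex (median 9.78) and from 9.97 to 16.1 CPM in hippocampus (median 12.9), a rise of 0.38 ± 0.038 (log2, SE). Slc25a27 (Ucp4) ranged from 56.1 to 75.7 CPM in cortex (median 67.3) and from 45.5 to 60.2 CPM in hippocampus (median 51.2), lower in 29 of 29 animals. It fell by 0.41 on the log2 scale. Both genes overlap between tissues. Slc25a30 rose by 0.34 and Slc25a14 (Ucp5) fell by 0.16.

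The ADP/ATP and phosphate carriers, the most abundant members, differed by at most 0.21 in Slc25a4, Slc25a5, Slc25a3 and Slc25a23. Slc25a4 fell by 0.11 and Slc25a5 rose by 0.09, so that the log2 ratio of Slc25a4 to Slc25a5 was lower in hippocampus in 28 of 29 animals. Slc25a3 fell by 0.21 in 29 of 29 animals. Of the ATP-Mg/phosphate carriers, Slc25a23 rose by 0.16 and Slc25a24 by 0.39 (cortex median 2.40 CPM), while Slc25a25 fell by 0.28 in 29 of 29 animals. Slc25a41 had a median of 0.18 CPM in cortex, below the filter, and 0.31 in hippocampus (log2 difference 0.75).

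The dicarboxylate and oxoglutarate carriers Slc25a10 and Slc25a11 did not pass, at 0.03 ± 0.035 and 0.03 ± 0.019 (log2, SE). The oxoadipate carrier Slc25a21 rose by 0.35 ± 0.14 (SE; edgeR adjusted p = 0.0195) at medians of 0.31 and 0.36 CPM. Without the same 6 animals its edgeR adjusted p was 0.055. Of the carriers without a settled substrate, Slc25a34 ranged from 3.27 to 9.30 CPM in cortex (median 5.79) and from 2.14 to 8.89 CPM in hippocampus (median 3.80), and fell by 0.55. Slc25a53 rose by 0.14. Slc25a43, below the filter in hippocampus, had medians of 0.34 CPM in cortex and 0.16 in hippocampus. Slc25a35 and Slc25a47 did not pass.

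**Figure D3:**
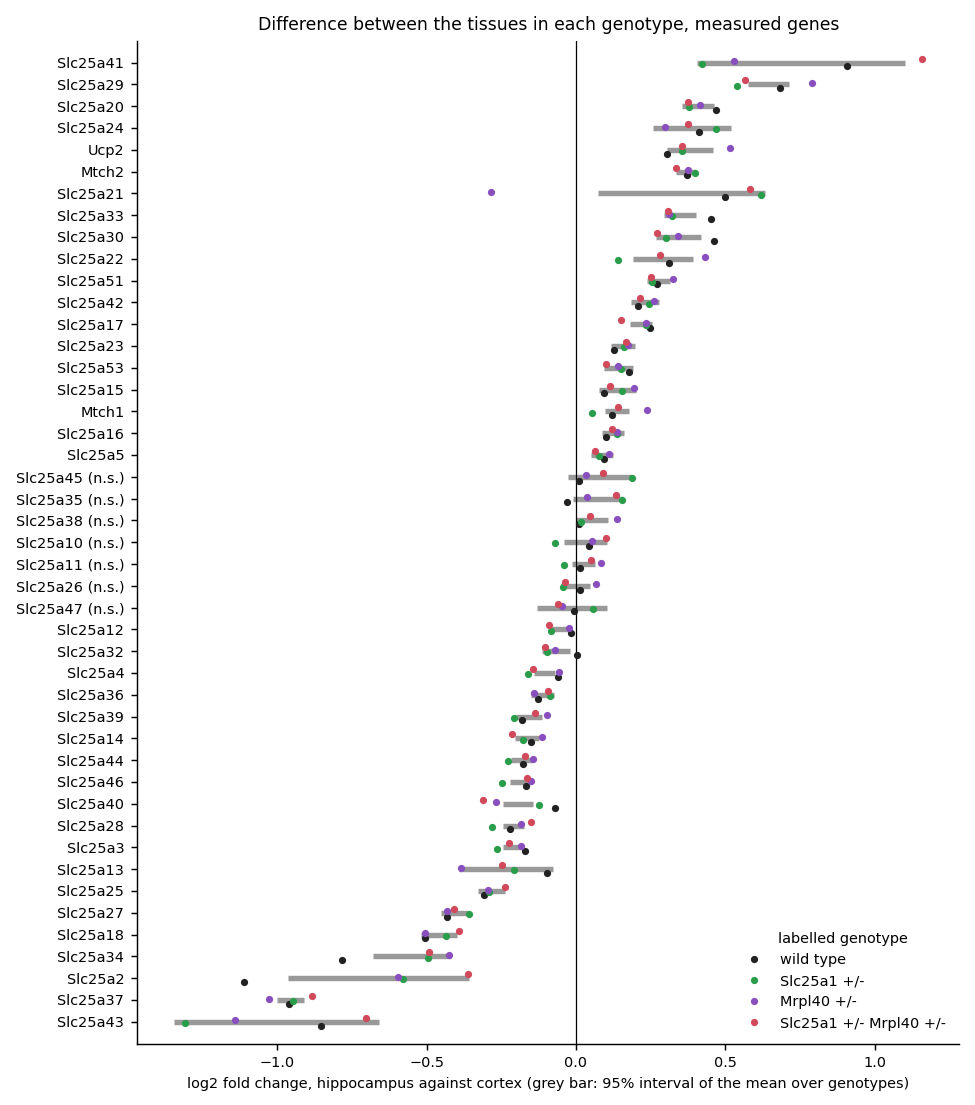
Log2 fold change of hippocampus against cortex for measured members, one point per labelled genotype and a grey bar for the 95% interval of the mean over genotypes; members marked n.s. did not pass the edgeR test. Slc25a37 lies at -0.96 with all 4 genotypes between -1.03 and -0.88.

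The tissue difference was also tested in each genotype, and the 4 genotypes rest on separate animals. It passed in 31 of 46 members in wild type (60.6% of all genes) and in 31 in the Slc25a1 het group (60.4%). Of the other groups, Mrpl40 het had 33 (60.3%) and double het 30 (57.5%). Of 46 members, 38 had the same sign in all 4 genotypes, against 77.6% of all genes. In 24 of 46 the difference passed the edgeR test in the same direction in each genotype, against 45% of all genes. Cortex and hippocampus libraries did not overlap at all in 5 members (Mtch2, Slc25a29, Slc25a33, Slc25a37 and Slc25a51), against 15% of all genes. In no test of the difference between tissues in a mutant genotype against that in wild type did a member pass. Over all genes, 0% passed for Slc25a1 het and for Mrpl40 het, and 0.0234% for double het. At an unadjusted p under 0.05 there were 2, 3 and 1 of 46 members, against 6.00%, 5.83% and 5.03% of all genes, and the DESeq2 Wald test also called 0.

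The promoters of the family were read from RefSeq (GRCm38.p6), where 38 members matched 49 promoters of 300 bases, of which 250 lie before the start. Their median GC content was 59.7%, against 52.7% over all 32851 promoters, and their median number of CpG was 16 against 7. Both strands were searched. The motif of NRF1, a factor of mitochondrial genes, was in 3 of 49 member promoters (6.1%) and 4.6% of all. These 3 belong to Mtch2, to Slc25a3, which was lower in hippocampus, and to Slc25a31, which had 0 to 5 counts. CCGGAAG, a core bound by ETS factors, was in 8 (16.3%) and 8.9%, and CCAAT in 21 (42.9%) and 37.4%. The sequence TATAAA was in 2 (4.1%) and 13.6%. These counts are small, some members have more than 1 promoter, and the sets were not matched for GC content. Differences in motif share were not tested. The 250 bases before the start of Mtch2, at chr2:90846905-90847154 on the plus strand, are shown because Mtch2 separated the tissues in every library and holds the NRF1 motif, in capitals.
Mtch2: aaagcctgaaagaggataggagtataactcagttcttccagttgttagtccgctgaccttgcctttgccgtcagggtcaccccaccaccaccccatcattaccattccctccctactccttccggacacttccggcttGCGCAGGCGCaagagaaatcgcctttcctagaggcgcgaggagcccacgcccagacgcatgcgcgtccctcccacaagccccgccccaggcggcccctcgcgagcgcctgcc
A match describes these letters and not a bound site, and a relation of the motif to the tissue difference was not tested.

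Within each tissue, the genotype comparisons gave no member past the test. In each tissue, 3 heterozygous groups were compared with the same wild-type libraries, double het was compared with both single hets, and the interaction and the mean effect of each allele label were fitted. All 16 comparisons called 0 members by edgeR, and also by the DESeq2 Wald test and by limma on the deposited normalized counts. The members at an unadjusted p under 0.05 numbered 0 to 7 of 44 or 45, and the share of all genes at such a p was 3.17% to 14.3%. The share of all genes called was 0.0686% in double het against wild type in cortex and 0.00992% in hippocampus, 0.0294% and 0.00496% in Mrpl40 het, and 0% in both for Slc25a1 het. It was 0.0637% and 0.109% for the Mrpl40 label. For double het against Slc25a1 het it was 0.0588% and 0%, and against Mrpl40 het 0.0049% and 0%. For the Slc25a1 label and the interaction it was 0% in both tissues. Over all 16, 21 of 46 members had an unadjusted p under 0.05 at least once, against 46.8% of all genes.

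The intervals bound the differences between the groups as labelled. These groups hold 2 wild-type and 2 double het animals with Slc25a1 against the label, and Mrpl40 did not separate by its label, so the intervals do not bound the effect of the alleles. In double het against wild type, the 95% interval of the log2 change lay within 0.25 either way in 35 of 45 members in cortex and 35 of 44 in hippocampus. It lay within 0.5 in 41 members in each. The estimates ranged from -0.34 to 0.13 in cortex and from -0.43 to 0.16 in hippocampus.

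**Figure D4:**
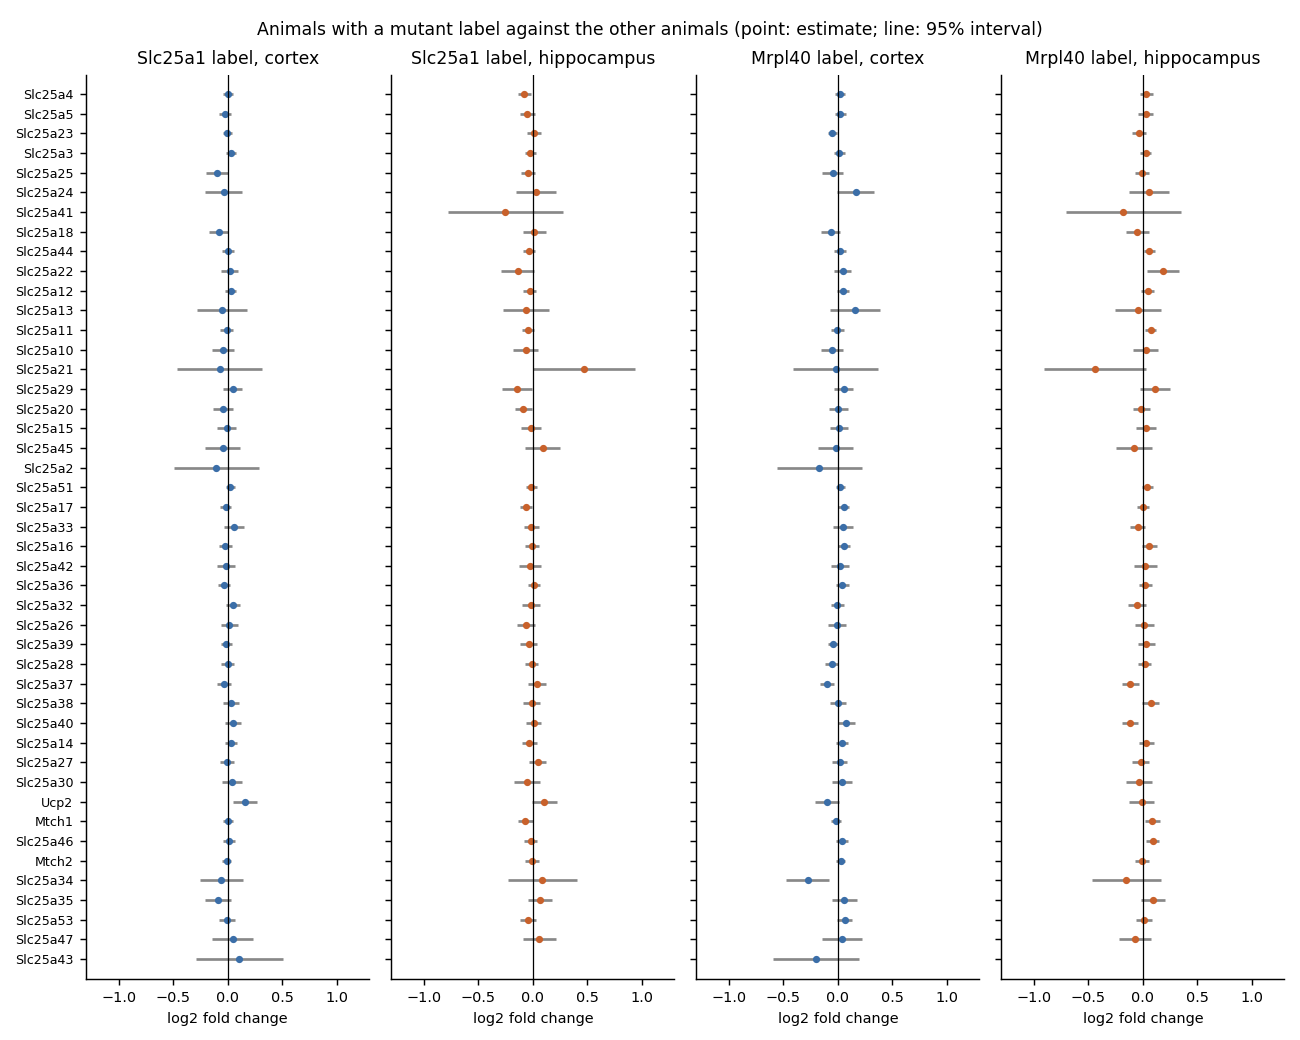
Log2 fold change of animals with a heterozygous Slc25a1 label (left panels) or Mrpl40 label (right panels) against the others, in each tissue, as estimates (points) and 95% intervals (lines) for members tested; a missing row was below the count filter. No member passed the test after adjustment, and the widest intervals belong to members with few counts such as Slc25a21 and Slc25a41.

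The smallest adjusted p belonged to the Mrpl40 label in hippocampus, where 7 of 44 members had an unadjusted p under 0.05 against 14.3% of all genes. The glutathione carrier Slc25a40 had medians of 13.6 CPM in wild type (range 13.0 to 14.7) and 13.4 in the Slc25a1 het group (range 11.8 to 14.3). They were 12.2 for Mrpl40 het (range 11.8 to 13.2) and 12.8 for double het (range 11.6 to 13.7). All groups overlap. The log2 difference with the label was -0.12 ± 0.035 (SE; edgeR adjusted p = 0.16). Slc25a46 was at 0.09 ± 0.029 (SE, edgeR adjusted p = 0.18), and by the DESeq2 Wald test its adjusted p was 0.058. Its Mrpl40 het libraries include that of animal 22, which stood apart (109 CPM, next 98.8). Slc25a37 was at -0.11 ± 0.040 (SE; edgeR adjusted p = 0.21). Without the 6 animals whose Slc25a1 went against the label, the smallest edgeR adjusted p of a member within a tissue was 0.38. It was that of Slc25a34 for the Mrpl40 label in cortex. The Mrpl40 label in hippocampus then called 3 genes over all genes, against 22 with those animals. In cortex Slc25a40 had medians of 14.3 CPM in wild type and 15.3 in double het, where 7 of 7 libraries lay above the wild-type median. The test of its double het change between the tissues did not pass (-0.24 ± 0.068, log2, SE; edgeR adjusted p = 0.44).

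For the Mrpl40 label in cortex the smallest p were those of Slc25a37, Slc25a34 and Slc25a23. Slc25a37 had medians of 54.1 CPM in wild type (range 49.4 to 57.3) and 51.4 in the Slc25a1 het group (range 49.0 to 59.7). They were 52.1 for Mrpl40 het (range 45.1 to 55.0) and 48.9 for double het (range 45.7 to 52.5). The groups overlap, although 7 of 7 double het libraries lay below the wild-type median. The log2 difference with the label was -0.10 ± 0.032 (SE; edgeR adjusted p = 0.21), that of Slc25a34 -0.28 ± 0.098 (SE; edgeR adjusted p = 0.25) and that of Slc25a23 -0.05 ± 0.022 (SE). In double het against wild type the values were -0.14 for Slc25a37, -0.15 for Slc25a18 and -0.34 for Slc25a34 (edgeR adjusted p from 0.23 to 0.33). In Mrpl40 het they were -0.42 for Slc25a34, 0.09 for Slc25a16 and -0.06 for Slc25a39. Double het against Slc25a1 het gave -0.12 for Slc25a28, -0.13 for Slc25a37 and -0.07 for Slc25a23. Against Mrpl40 het it gave 0.18 for Ucp2, -0.14 for Slc25a25 and 0.09 for Slc25a38.

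**Figure D5:**
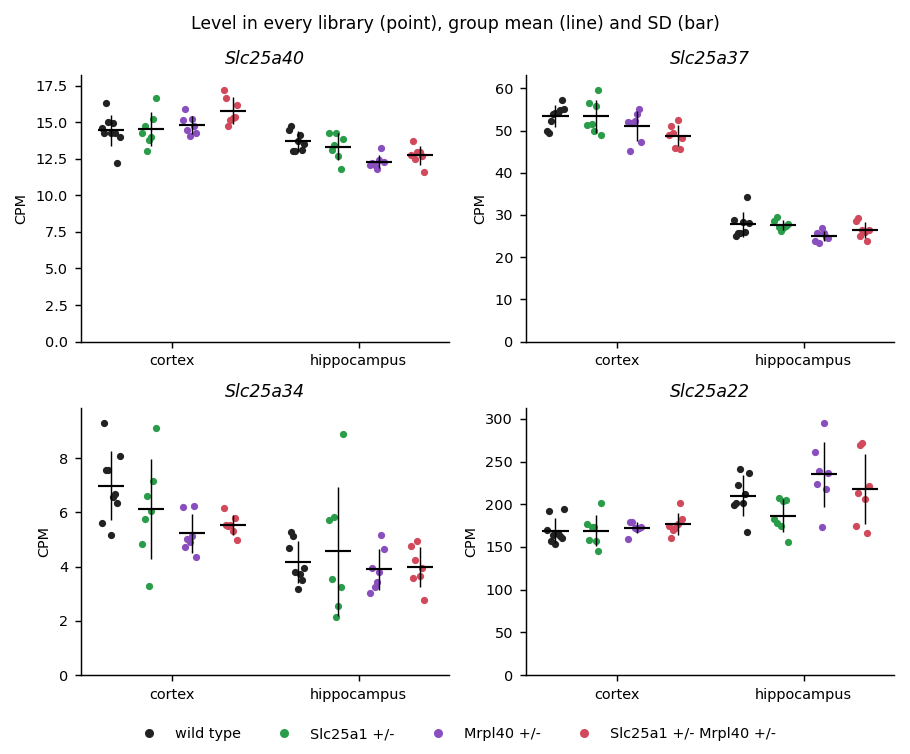
CPM of Slc25a40, Slc25a37, Slc25a34 and Slc25a22 in every library (points) with the group mean (horizontal line) and SD (vertical bar), by labelled genotype and tissue. Every mutant group overlaps wild type, and Slc25a22 spreads wider in hippocampus (156 to 295 CPM) than in cortex (146 to 201 CPM). Its highest hippocampus value is that of animal 22, whose library was high in choroid plexus markers. In the hippocampus library of animal 30, the highest in those markers, Slc25a22 is at 167 CPM.

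For the Slc25a1 label, in cortex, Ucp2 was at 0.16 ± 0.055 (log2, SE; edgeR adjusted p = 0.92), Slc25a25 at -0.10 and Slc25a18 at -0.08. In hippocampus Slc25a4 was at -0.08 ± 0.029 (SE; edgeR adjusted p = 0.47), Slc25a17 at -0.06 and Slc25a20 at -0.09. The values that follow are those of the 3 smallest p of each comparison, and none passed after adjustment. Slc25a1 het against wild type gave 0.13 for Slc25a33, -0.14 for Slc25a35 and 0.13 for Ucp2 in cortex. In that cortex comparison 0 of 45 members had an unadjusted edgeR p under 0.05. In hippocampus Slc25a1 het against wild type gave 0.18 for Ucp2, -0.17 for Slc25a10 and -0.08 for Slc25a4. Mrpl40 het against wild type gave -0.16 for Slc25a40, -0.16 for Slc25a37 and 0.12 for Slc25a16. Double het against wild type gave -0.11 for Slc25a40, 0.16 for Slc25a35 and -0.10 for Slc25a20. Double het gave 0.11 for Slc25a46, 0.21 for Slc25a22 and -0.21 for Slc25a45 against Slc25a1 het. Against Mrpl40 het it gave -0.08 for Slc25a17, -0.19 for Slc25a29 and 0.63 ± 0.35 (SE) for Slc25a21, which has few counts. For the interaction in cortex, the smallest p were those of Slc25a28 (-0.13), Slc25a38 (0.12) and Slc25a33 (-0.14). In hippocampus they were those of Slc25a10 (0.20), Slc25a16 (-0.11) and Slc25a45 (-0.27), where 0 of 44 members had an unadjusted edgeR p under 0.05.

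The level of a member in cortex was then set against that in hippocampus of the same animal, over 29 animals and with genotype means subtracted, to see whether animals kept their order. Of 43 members measured in both tissues, none passed after adjustment over all genes, against 1.16% of the 19463 genes by Pearson's r and 1.01% by Spearman's rho. At an unadjusted permutation p under 0.05 there were 7 members, against 12.6% of all genes. The highest was Slc25a42, with r of 0.57 (n = 29; permutation p = 0.0018, adjusted 0.091) and rho of 0.54 (permutation p = 0.0036). The lowest was Slc25a51, with r of -0.43 (n = 29; permutation p = 0.024, adjusted 0.30) and rho of -0.51 (permutation p = 0.010). Without the 2 animals farthest from the cortex median, these r were 0.50 and -0.42.

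Other genes that work beside the carriers were read from 4 lists. By edgeR no gene of these lists passed in any of the 16 comparisons within a tissue. Between the tissues the calls below stand beside the 39.8% of all genes that were higher in hippocampus and the 37.7% that were lower. Here 4 of 13 genes for importing carriers were higher in hippocampus and 5 lower, with Timm29 of the TIM22 complex at 0.47 ± 0.020 and Tomm40, the outer membrane pore, at -0.29 ± 0.020 (log2, SE). Of 15 other transporters and channels, 8 were higher and 5 lower, with Abcb10 at 0.72 and Sfxn3 at -0.90. Of 16 enzymes that use the carried metabolites, 5 were higher and 8 lower, with cytosolic malate dehydrogenase Mdh1 at -0.52 and Cpt1c at 0.31. Of 6 regulators of mitochondrial biogenesis, 2 were higher and 3 lower, with Gabpa at 0.51 and Esrra at -0.45.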

How the data were processed

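Poly(A) RNA was sequenced from 59 stranded, paired-end libraries of 2 tissues. The authors deposited unnormalized read counts for each gene. Their deposited signal values are normalized counts: the count over a factor of its library (largest relative range 9.85e-10). FastQC, HISAT2, featureCounts and DESeq2 and the build GRCm39 (mm39) are named in the submitters' processing notes, without versions. Gene lengths, positions and coding sequences came from GENCODE vM21 (GRCm38), which matched all 49 members by gene ID, and promoters from RefSeq (GRCm38.p6). The files hold no coordinates.

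Counts were tested with edgeR 4.0.16 in R 4.3.3 (quasi-likelihood test, TMM, filterByExpr, robust dispersion, Benjamini-Hochberg adjustment over all genes tested, threshold 0.05). All 4 genotypes of a tissue were fitted together; tissues were compared with the animal as a block, since the labels give each library an animal number. CPM uses TMM library sizes, and log2 CPM a prior count of 2. Correlations used residuals from genotype means and 100000 permutations within genotypes. Alternatives used DESeq2 1.42.0 and limma 3.58.1. Figures were drawn with Python 3.11.15 and matplotlib 3.10.9.

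The fit was tested on simulated data. In cortex, double het against wild type, 62.7% of the genes changed 1.2-fold were recovered, 91% of those changed 1.5-fold and 100% at 2-fold. In hippocampus these were 50.7%, 94% and 98.5%, and for the tissue difference 91%, 100% and 100%. False calls numbered 6, 7 and 12 in the same order. Only genes above a count limit were changed, so these shares do not hold for members with few counts. More genes were changed than the genotype comparisons called in the data, which eases the adjusted threshold. The simulated labels were all correct, unlike those of the animals whose Slc25a1 went against the label.

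The members and lists were chosen with earlier results of these data known. Named with statistics were, for each genotype comparison, the members past the test or else the 3 smallest p, for the tissues the 8 largest rises and falls past the test, the 5 highest levels, and the 2 smallest p of each further list; other members are given by role. Each animal is a separate mouse per the labels. One member enters the counts and is not reported here by name or drawn in the figures.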

Additional observations from a re-analysis of the deposited data

Results flagged for a closer look

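For the 22 members named in genotype comparisons, the highest and lowest library of each of 176 groups was compared with the rest of its group, and 8 libraries stood apart by Dixon's criterion. Chance alone marks about 5% of groups. Slc25a16 was lowest in the cortex of wild-type animal 6 (34.5 CPM, next 37.6) and in the hippocampus of Mrpl40 het animal 23 (39.6 CPM, next 44.9). Animal 23 was also lowest for Slc25a29 in cortex (7.23 CPM, next 8.38). In hippocampus, wild-type animal 2 was lowest for Slc25a20 (12.7 CPM, next 14.7) and Slc25a1 het animal 16 for Slc25a38 (13.8 CPM, next 15.7). Slc25a46 was highest in the hippocampus of Mrpl40 het animal 22 (109 CPM, next 98.8), a library high in choroid plexus markers (0.81, mean log2 CPM). In wild-type animal 8, whose hippocampus library had the lowest hippocampus markers (5.25, mean log2 CPM), Slc25a37 was highest (34.4 CPM, next 28.8) and Ucp2 lowest (9.97 CPM, next 11.7). The part of these markers in the levels was not tested.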

How the results depend on the processing

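Of 187 values of counts and relations under alternative settings, all kept their side of the threshold, and counts above 0 stayed within 1.5 times. Most of the 187 were counts of 0 members that stayed at 0, within a tissue, for tissue by genotype or across tissues. Marker relations that did not pass also counted as kept. Among them, the hippocampus r of Slc25a18 with astrocyte markers moved from 0.16 to 0.42 without the 2 farthest libraries. Members called between the tissues numbered 35 to 39, against 38, over no filter, DESeq2 size factors, the DESeq2 Wald test, no animal block and 3 fits chosen after seeing the data. These left out the 6 animals in which Slc25a1 disagrees with the label, the 3 hippocampus libraries of animals 12, 22 and 30, or that of animal 8. For single members, 484 values kept their sign and side of the threshold or, for cross-tissue r without 2 animals, moved by less than their SE. Members named without passing counted as kept when they stayed uncalled. Slc25a21 lost its tissue call without a filter (0.36, edgeR adjusted p = 0.051) and without the 6 animals (0.35, edgeR adjusted p = 0.055), as did Slc25a13 without the 6 animals (-0.15, edgeR adjusted p = 0.11). Over its other alternatives Slc25a21 and Slc25a13 stayed past the threshold; the cause was not tested. The cross-tissue r of Slc25a34 and Slc25a16 went from 0.55 to 0.13 and from 0.48 to 0.30 without the 2 farthest animals.

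Within a tissue, 0 members were called under any setting run, and the smallest adjusted p was 0.058 (Slc25a46, DESeq2 Wald test), where 62 of 712 member values had no adjusted p. Over all genes, the 16 comparisons called 0 to 22 genes by edgeR and 0 to 183 by DESeq2, and the tissue difference of double het against that of wild type called 5 and 15 (0 by edgeR without the 6 animals, and without the 3 libraries). With the replicate number as a block, 0 members were called. By the labels, the same number in different genotypes names different animals. Over 12920 genes, deviations from group means had a median correlation of 0.0602 between same-numbered libraries and -0.00776 between others. Whether same-numbered libraries share an effect was not tested. With no replicate block for the animal, 38 members differed between tissues. Across tissues, the median correlation was 0.138 for both libraries of 1 animal, against -0.00562 between animals. Limma on the deposited normalized counts was not run between tissues, which appear to have been scaled separately: deposited factors were 1 times the median-of-ratios factors of cortex alone, 0.997 to 0.999 times those of hippocampus alone, and 0.986 to 1.01 times those of all libraries. Few counts limit Slc25a2, Slc25a21, Slc25a41 and Slc25a43.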
